A study of Homo sapiens with 21 samples.

Results

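The AP-1, EGR1 and MYC immediate early genes are FOS, FOSB, FOSL1, FOSL2, JUN, JUNB, JUND, ATF3, EGR1 and MYC. These 10 genes were chosen by name, out of 20970 genes listed in at least 1 of the 4 expression tables of the study. All 10 had a row in the 3 tables of FADU cells, and 9 had one in the table of BFTC909 cells, where FOSB was not analysed here. Every member with a row passed the filter on low values (2 or more libraries of its table at 1 or above).

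The study asked how METTL4, a putative DNA adenine methyltransferase, acts on gene expression in hypoxic cancer cells. Total RNA without ribosomal RNA was sequenced in 21 libraries of 11 groups from FADU, a line from a hypopharyngeal squamous cell carcinoma, and BFTC909, a line from a transitional cell carcinoma of the renal pelvis. In each line, cells with a scrambled control (Scr-si) were kept in normoxia (18% O2) or hypoxia (1% O2) for 18 h, and cells with METTL4 knockdown (METTL4-si) were kept in hypoxia, with 2 libraries a group. In FADU cells under normoxia, a control, METTL4 overexpression and overexpression of the long noncoding RNA RP11-390F4.3 were compared, with 2 libraries a group. The columns of the last group bear a name that the labels do not explain and were assigned to it because the other 4 columns of that table matched the other 2 groups. In FADU cells under hypoxia, 1 CRISPR control library was set beside 1 library from each of 2 METTL4-DPPW mutant clones, which carry a change in the catalytic site made by prime editing. The overexpressing cells were stable transfectants and each mutant clone was grown from 1 cell, so that clone and allele cannot be told apart. The labels do not say whether replicates came from separate cultures, so p-values measure the spread between libraries, which may be technical.

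Immediate early genes are switched on within minutes of a stimulus without new protein synthesis, mostly through the ERK, JNK and p38 MAP kinases and the factors SRF, ELK and CREB that these kinases act on. FOS and JUN proteins pair through leucine zippers into AP-1 dimers. FOS proteins need a JUN partner to bind DNA, whereas JUN proteins can also pair among themselves. EGR1 is a zinc finger factor of the same response and MYC is the growth-promoting partner of MAX. In carcinoma cells these genes follow growth factor signalling, stress and cell handling, and their transcripts are short-lived.

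The values are the authors' TMM-normalized CPM (counts scaled to library size), called values below, and each gene's value is a whole number of reads times a constant of its library. Between 17.8 and 25.4 M reads fell on genes in each library, of which 3.26% to 7.11% were mitochondrial. In hypoxic FADU, METTL4 itself had a mean value of 25.67 where the label is METTL4-si and 25.96 in Scr-si (adjusted p = 0.9), so the transcript did not bear out the label. In BFTC909 it was 13.29 against 17.33 (adjusted p = 0.0717), and under METTL4 overexpression 148 against 34.08 (adjusted p = 4.32e-11). RP11-390F4.3 was not matched to a row by identifier, and its own level is not given. The squamous marker list (9 genes) was at 1 or more in full in every FADU knockdown library, whereas in BFTC909 only 4 of 9 urothelial and simple epithelial markers had a row. Of 7 fibroblast markers 6 had one there, and their summed value was 1251.51 and 1351.72 in normoxia, 4699.89 and 4910.82 in hypoxia and 2618.55 and 2824.69 under METTL4-si. The summed value of the 3 luminal breast markers with a row in BFTC909 was 327.33 and 337.47, then 1004.01 and 1025.5, and then 323.4 and 423.1. Most of this sum was CA12, at 322.54 and 332.56, then 995.92 and 1016.52, and then 302.81 and 284.55. GREB1 went from 2.31 and 3.2 in hypoxia to 10.65 and 120.78 under METTL4-si, and SCUBE2 from 5.78 and 5.78 to 9.94 and 17.77. The fibroblast sum and CA12 thus moved with the 2 comparisons of that line, and their part in its results was not tested. By markers of another cell type, 3 libraries of the knockdown comparisons stood apart from the others of their line and are called marked below. The summed value of 8 luminal breast markers was 109.44 in FADU normoxia replicate 1 and 531.13 in FADU METTL4-si replicate 1, against 9.87 to 11.86 in the other 4 libraries. The summed value of the epithelial markers was 1248.72 in BFTC909 METTL4-si replicate 2, against 21.98 to 85.21 in the other 5. Their part in the results was not tested, and values without these libraries are given beside many of the calls that turned on them. Without them the FADU normoxia, FADU METTL4-si and BFTC909 METTL4-si groups keep 1 library each, so an adjusted p there does not measure their spread.

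The DNA just upstream of the start of FOS, FOSB, EGR1 and JUN is shown. FOS, EGR1 and FOSB were chosen because they had the lowest mean log2 ratios to the control among genes listed for the mutant clones. JUN was added as the partner with which FOS proteins bind DNA. The sequences are from RefSeq's promoter table (build GRCh38.p14). Of 9 members looked up there, 8 had a window and FOSL1 had none, and MYC was not looked up. The windows below are the 250 bases before the start, 5′ to 3′ on the gene's own strand: EGR1 (chr5:138465229-138465478, plus strand), FOS (chr14:75278578-75278827, plus strand), FOSB (chr19:45467746-45467995, plus strand) and JUN (chr1:58784048-58784297, minus strand). Capitals mark the CArG box, to which SRF binds, the letters TGACG, the core of the cAMP response element (CRE) to which CREB and ATF proteins bind, and the letters TGACATCA, an AP-1-like element. Both strands were searched, and a TGACG on the other strand reads CGTCA.
EGR1: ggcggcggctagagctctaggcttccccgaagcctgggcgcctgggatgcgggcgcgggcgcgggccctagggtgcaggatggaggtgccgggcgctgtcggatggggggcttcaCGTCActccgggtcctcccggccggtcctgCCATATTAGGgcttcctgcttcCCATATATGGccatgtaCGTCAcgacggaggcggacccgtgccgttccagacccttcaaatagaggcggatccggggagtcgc
FOS: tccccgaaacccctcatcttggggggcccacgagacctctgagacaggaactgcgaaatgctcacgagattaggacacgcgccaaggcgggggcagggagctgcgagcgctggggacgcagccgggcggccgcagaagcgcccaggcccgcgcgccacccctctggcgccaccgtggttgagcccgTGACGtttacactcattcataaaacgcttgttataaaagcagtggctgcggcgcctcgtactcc
FOSB: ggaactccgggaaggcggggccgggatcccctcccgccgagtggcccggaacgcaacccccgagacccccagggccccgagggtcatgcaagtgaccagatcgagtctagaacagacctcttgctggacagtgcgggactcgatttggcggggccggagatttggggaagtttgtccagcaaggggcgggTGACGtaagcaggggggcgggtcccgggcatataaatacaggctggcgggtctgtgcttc
JUN: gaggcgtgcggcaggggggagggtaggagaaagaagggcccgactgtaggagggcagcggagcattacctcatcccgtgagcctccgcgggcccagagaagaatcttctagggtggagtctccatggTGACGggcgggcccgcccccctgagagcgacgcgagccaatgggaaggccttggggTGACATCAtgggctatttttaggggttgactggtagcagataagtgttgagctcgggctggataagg

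EGR1 held 2 CArG boxes, starting 105 and 83 bases before its start, in contrast to 1.16% of all 35116 promoter windows of the same length that held any. No CArG box lay in the other 3 windows, which says only that these letters are not in these 250 bases. TGACG stood 64 bases before the start in FOS, 60 in FOSB and 123 in JUN, and in EGR1 it lay on the other strand, at 66 and at 135 bases. This core is common, in 21.2% of all windows. The full CRE, TGACGTCA, was found in JUND alone among the 8 members with a window, 200 bases before its start, and in 1.65% of windows. TGACATCA stood 67 bases before the start in JUN and 123 in ATF3, and in 2.37% of windows. None of these members' windows held the AP-1 site TGANTCA, which was in 6.57% of windows. With 8 windows at that share, having none does not set these members apart. The letters ACGTG or GCGTG, the core to which hypoxia-inducible factors bind, were in the windows of JUN, FOSL2, EGR1, FOS and JUNB and in 43.2% of all windows. A match is a string of letters and not a measured site.

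The members differed in level between the lines. Compared per kilobase of exon, the highest member in normoxic FADU Scr-si was EGR1 (95.105), followed by FOSL1 (64.396), JUNB (56.994), MYC (28.863), JUN (21.377), FOS (10.322), JUND (7.23), FOSL2 (6.954), FOSB (1.366) and ATF3 (0.666). In normoxic BFTC909 Scr-si the order was led by FOSL1 (135.728 per kilobase), FOSL2 (38.974), JUN (31.21), MYC (19.907) and JUNB (11.964), whereas EGR1 (0.931), FOS (0.464) and ATF3 (0.319) were last. Of the 3 FOS-family members measured in BFTC909, FOSL1 and FOSL2 were thus far above FOS. The tables of the lines were normalized separately, so these levels are set side by side without a test.

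**Figure D1:**
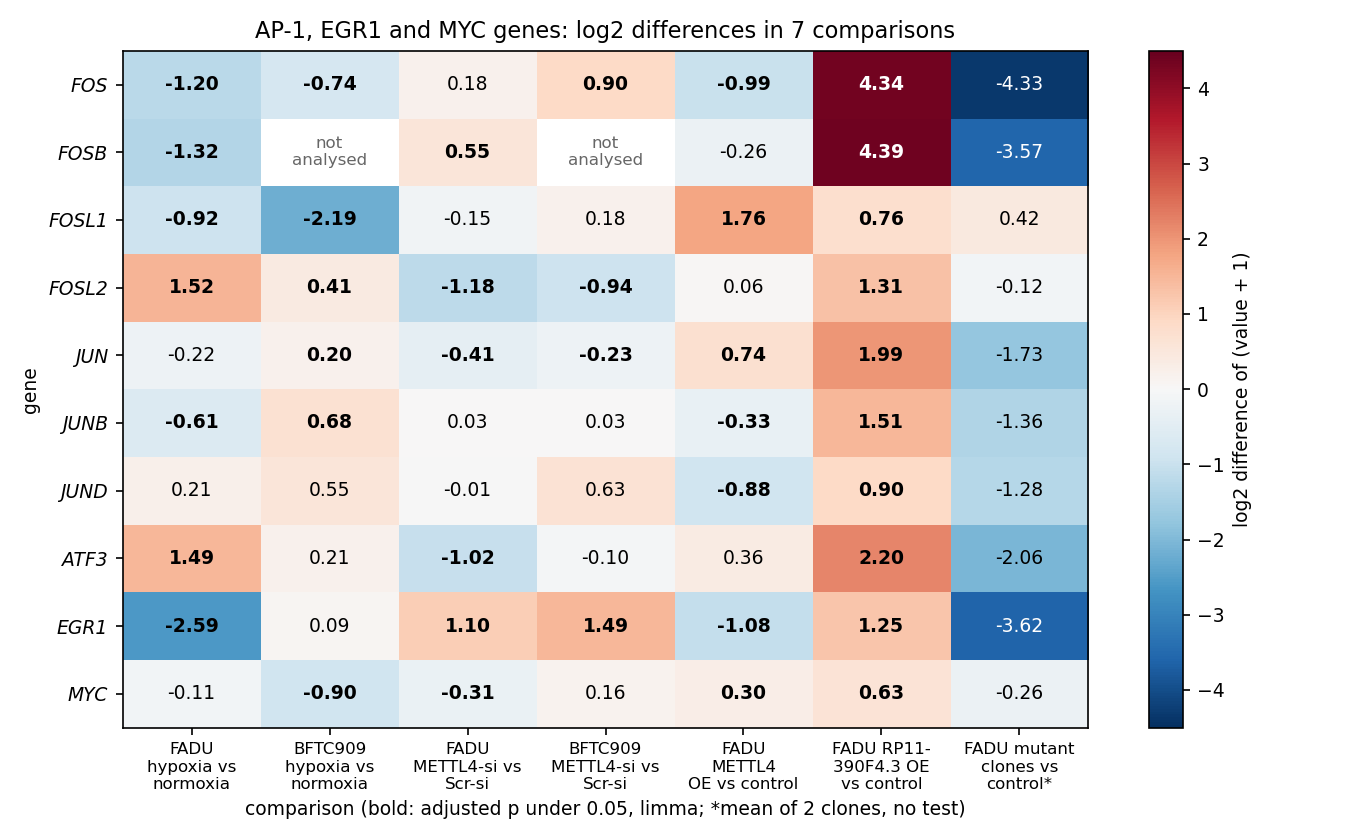
Heat map of the log2 difference of (value + 1) of the 10 genes (rows) in 7 comparisons (columns). Bold values had an adjusted p under 0.05 in limma, and the last column is the mean of 2 mutant clones against 1 control library, with no test. FOS and FOSB stand out at 4.34 and 4.39 under RP11-390F4.3 overexpression and at -4.33 and -3.57 in the mutant clones.

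The members moved in a different combination in each comparison, shown in the heat map of log2 differences. In FADU hypoxia, 2 of 10 members rose (FOSL2 and ATF3) and 5 fell (EGR1, FOSB, FOS, FOSL1 and JUNB), where 11.7% of all 16324 genes tested rose and 12.7% fell. The members' median log2 change was -0.42, against -0.03 for all genes. In BFTC909 hypoxia, 3 of 9 rose (FOSL2, JUN and JUNB) and 3 fell (FOSL1, MYC and FOS), where 21.2% of 14869 genes rose and 24.5% fell, so the members' shares stood near those of all genes. In hypoxic FADU, 2 of 10 were higher under METTL4-si than under Scr-si (EGR1 and FOSB) and 4 lower (FOSL2, ATF3, JUN and MYC), where 15.2% of genes were higher and 19.5% lower. In hypoxic BFTC909, 2 of 9 were higher (EGR1 and FOS) and 2 lower (FOSL2 and JUN), where 15.7% of genes were higher and 16.6% lower. EGR1 was higher and FOSL2 and JUN lower in both lines. With 2 libraries a group, most genes did not overlap between groups, 73.01% in FADU hypoxia and 82.21% in BFTC909 hypoxia. For METTL4-si against hypoxic Scr-si these shares were 68.3% in FADU and 64.69% in BFTC909. Against the control they were 69.76% with METTL4 overexpression and 75.88% with RP11-390F4.3 overexpression.

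Hypoxic METTL4-si cells were also compared with normoxic Scr-si cells, a contrast that shares libraries with those above. In FADU, 7 of 10 members were lower (EGR1, FOSL1, FOS, FOSB, JUN, JUNB and MYC), where 17.6% of genes were lower and 9.92% higher. In BFTC909, 3 of 9 were higher (EGR1, JUND and JUNB) and 3 lower (FOSL1, MYC and FOSL2), where 27.7% of genes were higher and 29% lower. Of these calls, FOSB in FADU was lost without normoxia replicate 1 (adjusted p = 0.0781) or 2 (adjusted p = 0.064), MYC in FADU likewise (adjusted p = 0.0676 and 0.0516), and JUNB in BFTC909 likewise (adjusted p = 0.0596 and 0.086). JUNB in FADU was lost without any 1 of the 4 Scr-si libraries (adjusted p between 0.0596 and 0.132) and had a log2 change of -0.37 without METTL4-si replicate 2, against -0.58 with it. Calls were gained in FADU for FOSL2 (log2 0.875) and JUND (log2 0.78) without METTL4-si replicate 2, which left the marked replicate 1. Without both marked libraries these values were -0.051 and -0.189. For ATF3 a call was gained without METTL4-si replicate 1 (log2 0.655, and 0.72 without both marked libraries). In BFTC909 a call was gained for FOS without METTL4-si replicate 1 (log2 0.53), which left the marked replicate 2. Without that marked library FOS was at -0.218. JUNB in BFTC909 was 0.36 without the marked library, against 0.70 with it.

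Under METTL4 overexpression, 3 of 10 members rose (FOSL1, JUN and MYC) and 4 fell (EGR1, FOS, JUND and JUNB), where 20.9% of 15644 genes rose and 18.1% fell. Under RP11-390F4.3 overexpression all 10 rose, where 28% of genes rose and 24.8% fell. The members' median log2 change there was 1.41, against 0.01 for all genes. Between the 2 overexpressing lines, 9 of 10 were higher with RP11-390F4.3 and 1, FOSL1, was higher with METTL4, where 28.3% of genes were higher and 25.8% lower. In the mutant clones 7 of 10 members were at least 1.5-fold lower in both clones than in the CRISPR control (FOS, EGR1, FOSB, ATF3, JUN, JUNB and JUND), where 5.87% of 15719 genes were lower by that measure and 2.67% higher.

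EGR1 (chr5:137801168-137804992, GRCh37, plus strand) had the largest change of any member with hypoxia in FADU. Its value was 307.85 and 288.84 in the normoxic libraries and 47.13 and 50.40 in the hypoxic ones. Both hypoxic libraries were far below both normoxic ones, and the mean was 6.12-fold lower (log2 -2.59, SE 0.0709, adjusted p = 2e-05 in limma). Only 6 of 16324 genes had a lower log2 change. Fewer cells with the transcript and less of it per cell cannot be told apart in such bulk RNA. In BFTC909, EGR1 was low in normoxia (2.86 and 2.98) and in hypoxia (3.42 and 2.91), the groups overlapped, and no change passed the test (log2 0.09, adjusted p = 0.761). The difference between the lines in this response passed the test (log2 2.67, SE 0.235, adjusted p = 7.71e-05), where 25.9% of 13595 genes tested in both lines differed.

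EGR1 was higher under METTL4-si than under Scr-si in both hypoxic lines. In FADU its value was 102.69 and 108.17 under METTL4-si, above both hypoxic Scr-si libraries and below both normoxic ones (log2 1.10 against hypoxic Scr-si, adjusted p = 0.000238). In BFTC909 its value was 8.39 and 13.59 under METTL4-si, above all 4 Scr-si libraries (log2 1.49, SE 0.207, adjusted p = 0.00198). Without the marked libraries the log2 change was 1.13 in FADU and 1.175 in BFTC909. No difference between the lines was called for it (log2 0.40, adjusted p = 0.246), where 25.3% of genes differed. The difference was called without BFTC909 METTL4-si replicate 1 (log2 0.71), which left the marked replicate 2, and was 0.041 without the marked libraries.

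EGR1 went opposite ways in the 2 overexpressing lines. The control libraries stood at 193.77 and 141.68, the METTL4 libraries at 79.57 and 75.63 and the RP11-390F4.3 libraries at 389.62 and 401.40. The 3 groups did not overlap, and EGR1 fell 2.16-fold with METTL4 (log2 -1.085, adjusted p = 1.16e-06) and rose 2.36-fold with RP11-390F4.3 (log2 1.25, adjusted p = 1.99e-07). In the mutant table, the hypoxic CRISPR control stood at 324.28 and the clones at 28.93 and 22.44. The control was 11.21-fold and 14.45-fold above the clones, and 95% counting intervals for these ratios, which cover counting error only, ran from 10.5 to 11.97 and from 13.39 to 15.59.

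**Figure D2:**
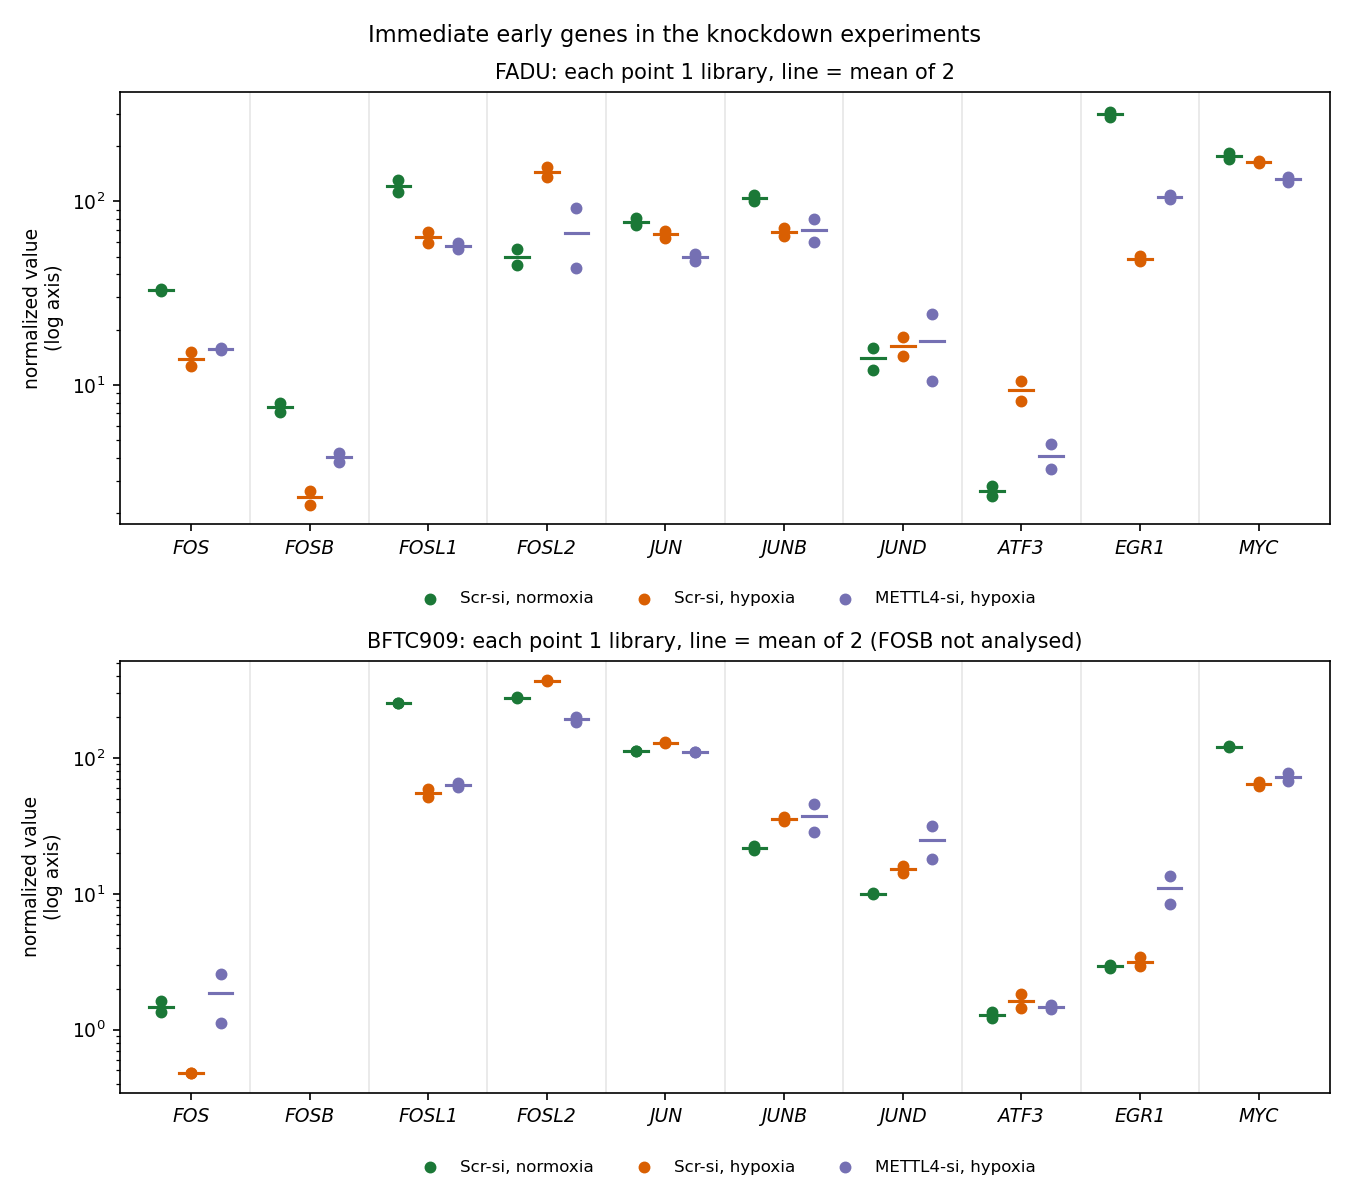
Normalized value (log axis) of each gene in each knockdown library of FADU (top) and BFTC909 (bottom); points are libraries and lines are means of 2. In FADU, EGR1 goes from 307.85 and 288.84 in normoxia to 47.13 and 50.40 in hypoxia, whereas in BFTC909 it lies between 2.86 and 3.42 in these groups.

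FOS and FOSB, the FOS proteins with a strong activation domain, also fell in FADU hypoxia. FOS (chr14:75745529-75748933, GRCh37, plus strand) stood at 32.49 and 33.28 in normoxia and at 12.63 and 15.05 in hypoxia (log2 -1.20, adjusted p = 0.000948). FOSB (chr19:45971253-45978437, GRCh37, plus strand) stood at 8.02 and 7.15 in normoxia and at 2.65 and 2.23 in hypoxia (log2 -1.32, adjusted p = 0.00166). Neither gene's groups overlapped, as for 73.01% of all genes in this comparison, and the falls were 2.38-fold and 3.1-fold in the means. The annotation of FOSB overlaps ERCC1 on the other strand. The kit kept strand, but the strand setting of the authors' counting is not given in the sources used here.

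Under METTL4-si in hypoxic FADU, FOS stood at 15.59 and 15.84, with no change called against hypoxic Scr-si (log2 0.18). FOSB stood at 3.83 and 4.27, above both hypoxic and below both normoxic Scr-si libraries (log2 0.55, adjusted p = 0.0214). The FOSB call was lost with DESeq2 (adjusted p = 0.0559) and without hypoxic Scr-si replicate 1 (adjusted p = 0.073) or 2 (adjusted p = 0.146). In BFTC909 FOS was near the limit of detection, with 36 and 32 reads in normoxia, 10 and 10 in hypoxia, and 24 and 51 under METTL4-si. Its values of 1.61 and 1.34, 0.48 and 0.48, and 1.13 and 2.57 gave a fall with hypoxia (log2 -0.74, adjusted p = 0.0382) and a rise under METTL4-si (log2 0.90, adjusted p = 0.0264). These log2 values are held down by the added 1: on the whole reads edgeR gave -1.60 and 1.91. Leaving out any 1 Scr-si library ended both calls, with adjusted p between 0.102 and 0.171 for the fall and between 0.0506 and 0.128 for the rise. Without METTL4-si replicate 2, the marked library, the rise was 0.52 (adjusted p = 0.0328).

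RP11-390F4.3 overexpression raised FOS and FOSB more than any other gene. The control libraries held FOS at 29.38 and 24.33, the METTL4 libraries at 13.37 and 12.55 and the RP11-390F4.3 libraries at 552.90 and 570.72. For FOSB the same libraries held 5.44 and 4.98, then 3.73 and 4.71, and then 123.05 and 135.31. FOSB ranked 1 and FOS ranked 2 by log2 change among 15644 genes, with means 24.8-fold and 20.9-fold above control (log2 4.39, adjusted p = 1.17e-12, and log2 4.34, adjusted p = 8.42e-14). Both RP11-390F4.3 libraries lay far above all 4 others. The summed luminal breast markers were 51.61 in RP11-390F4.3 replicate 2 and 15.95 in replicate 1, against 7.93 to 10.28 in the other 4 libraries, and the part of these markers was not tested. In each of 6 fits without 1 library, all 10 members rose, and the log2 change was at least 4.211 for FOS and 4.322 for FOSB. With METTL4, FOS fell 2.07-fold (log2 -0.99, adjusted p = 1.65e-07), whereas no change was called for FOSB (log2 -0.26, adjusted p = 0.0619). FOSB was called without METTL4 replicate 2 (log2 -0.39, adjusted p = 0.0173) and with a pseudocount of 0.1 (log2 -0.305, adjusted p = 0.0461).

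**Figure D3:**
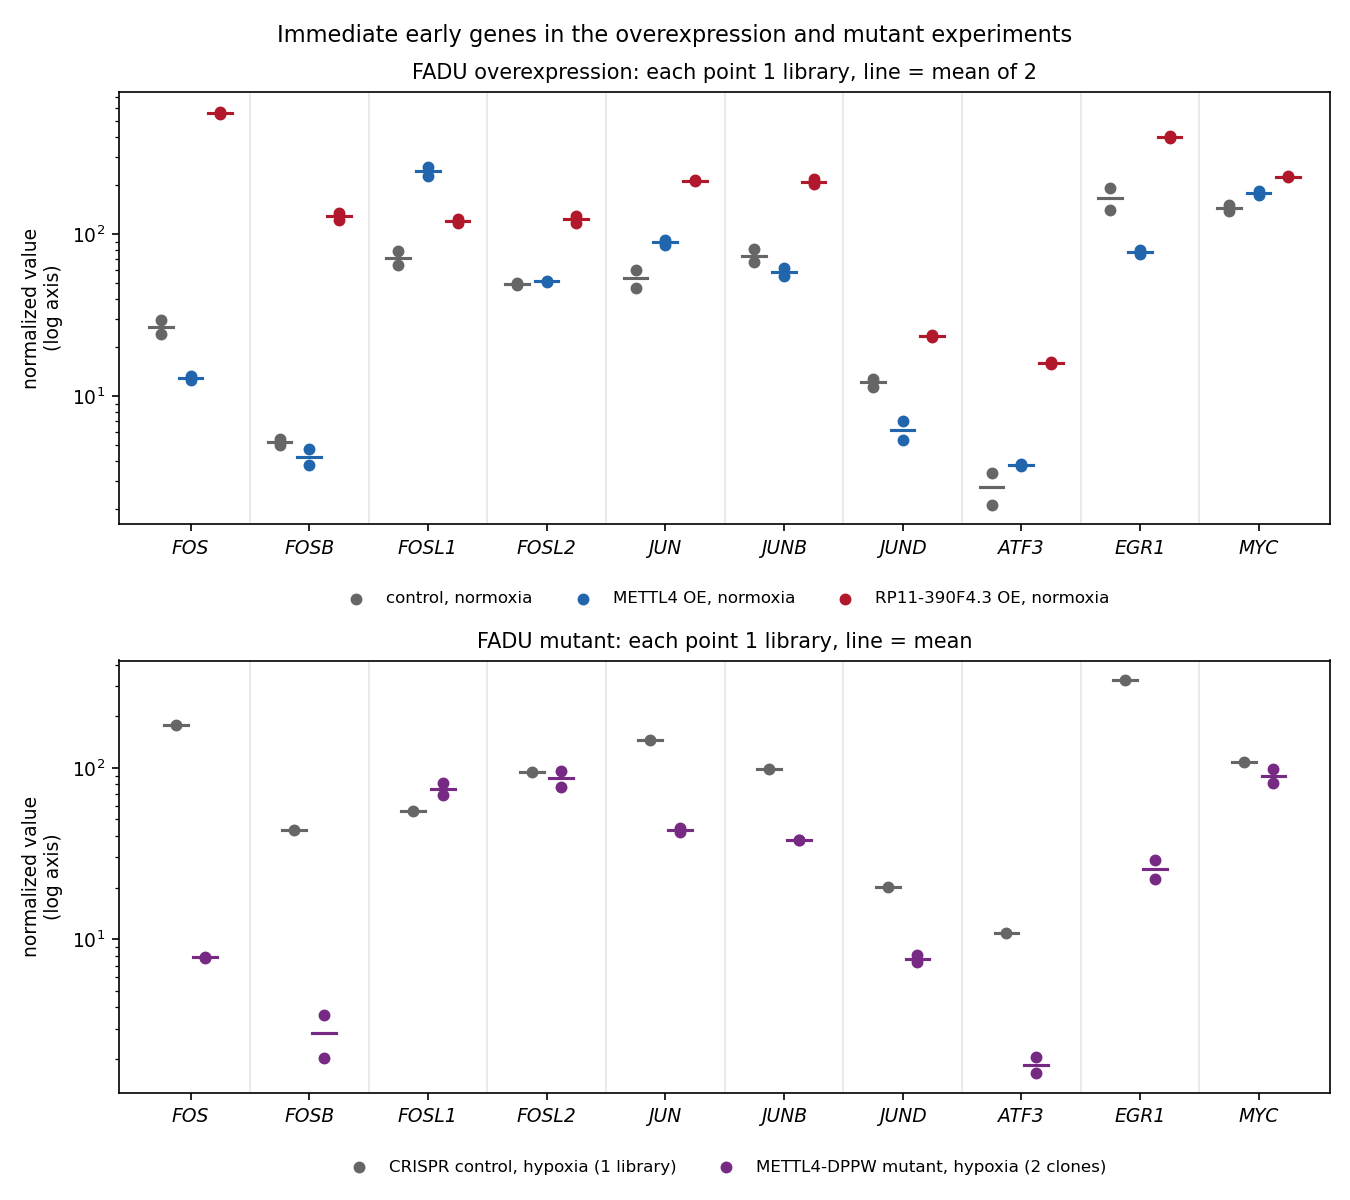
Normalized value (log axis) of each gene in each library of the overexpression table (top, lines are means of 2) and of the mutant table (bottom, 1 control library and 2 clones). FOS lies at 552.90 and 570.72 with RP11-390F4.3 against 29.38 and 24.33 in control, and at 7.81 and 7.91 in the mutant clones against 177.58 in their control.

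In the mutant table FOS, EGR1 and FOSB had the lowest, the second and the third lowest mean log2 ratio of all 15719 genes listed. The lowest count of a listed gene was 11 reads in the control and 10 in each clone. Genes with fewer reads were thus not ranked. FOS stood at 177.58 in the CRISPR control and at 7.81 and 7.91 in the clones, and FOSB at 43.50, 3.61 and 2.04. The control was thus 22.75-fold and 22.46-fold above the clones in FOS and 12.06-fold and 21.32-fold above them in FOSB. These ratios rest on 1 control library and carry no test.

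The level in that control library was therefore set beside the other FADU controls, as CPM of gene reads, which does not use the tables' scaling. FOS stood at 291.77 in the hypoxic CRISPR control, in contrast to 12.48 and 14.77 in the hypoxic Scr-si libraries and 13.96 and 13.95 in the mutant clones. EGR1 stood at 532.80, in contrast to 46.58 and 49.44 in hypoxic Scr-si and 51.73 and 39.59 in the clones. FOSB stood at 71.47, in contrast to 2.62 and 2.19 in hypoxic Scr-si and 6.45 and 3.6 in the clones. For FOS and EGR1 the clones thus lay near the hypoxic Scr-si cells, for FOSB somewhat above them, and for all 3 genes the CRISPR control lay far above both. JUN showed the same order, with 239.93 in the CRISPR control, 62.65 and 67.65 in hypoxic Scr-si and 79.81 and 74.06 in the clones. MYC did not, with 176.64, 160.25 and 161.93, and 145.77 and 173.89. Nor did ATF3, at 8.08 and 10.38 in hypoxic Scr-si, with the CRISPR control above these libraries and both clones below them. JUNB and JUND were not compared in this way. Allele, clone, table and that single library cannot be told apart in this design.

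**Figure D4:**
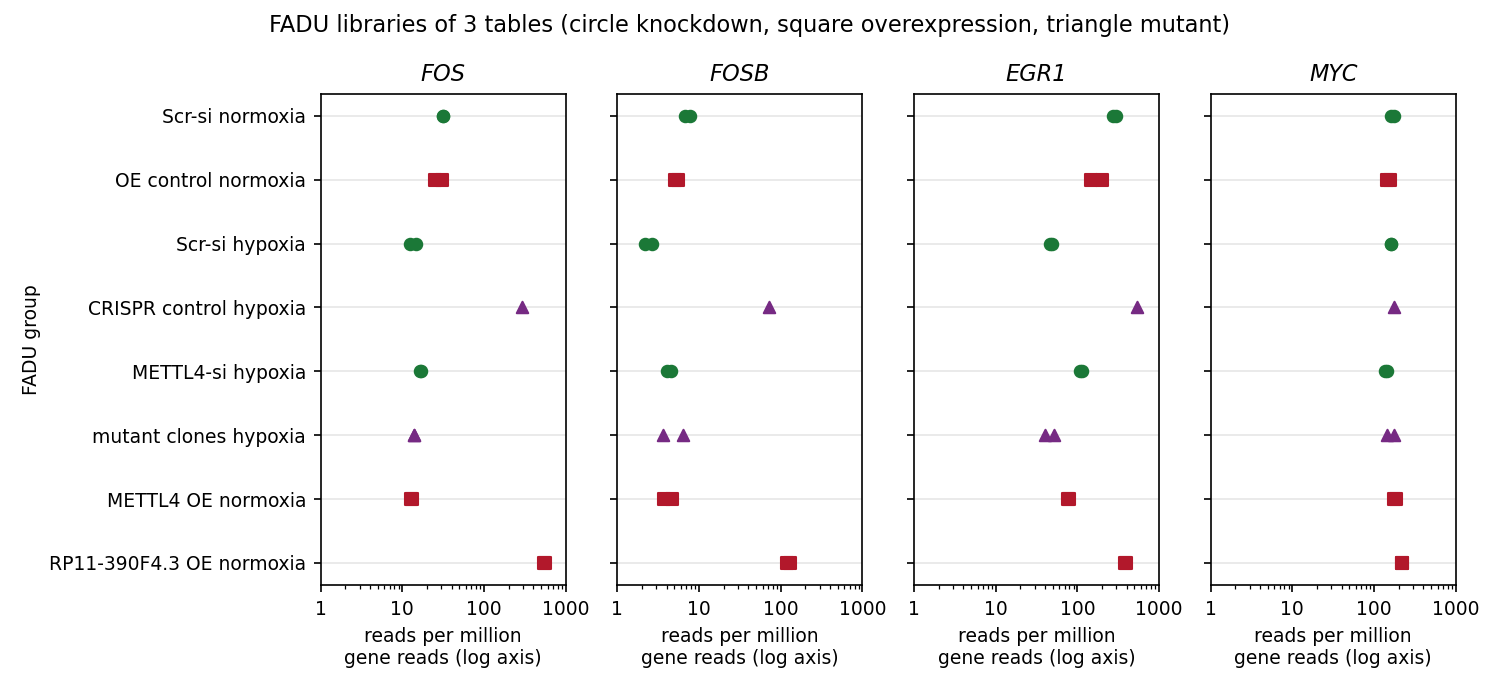
CPM of gene reads (log axis) of FOS, FOSB, EGR1 and MYC in every FADU library, by group (rows); circles are the knockdown, squares the overexpression and triangles the mutant table. For FOS the hypoxic CRISPR control (291.77) lies far from the hypoxic Scr-si libraries (12.48 and 14.77), while the mutant clones (13.96 and 13.95) lie beside them.

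FOSL1 and FOSL2, the FOS relatives without a strong activation domain, moved apart from FOS and from each other. FOSL1 (chr11:65659520-65668044, GRCh37, minus strand) stood in FADU at 131.17 and 111.86 in normoxia and at 68.30 and 59.02 in hypoxia (log2 -0.92, adjusted p = 0.00241). In BFTC909 it stood at 256.44 and 255.80 in normoxia and at 51.60 and 59.19 in hypoxia, a 4.62-fold fall (log2 -2.19, SE 0.0817, adjusted p = 8.91e-06). Both hypoxic libraries were below both normoxic ones in each line, and the fall was larger in BFTC909 (difference -1.27, SE 0.143, adjusted p = 0.000308). Under METTL4-si it stayed at 55.19 and 58.96 in FADU and at 60.97 and 65.00 in BFTC909, with no change called against hypoxic Scr-si (adjusted p = 0.125 in BFTC909). In BFTC909 it was called without METTL4-si replicate 1 (log2 0.23), which left the marked replicate 2. Without that marked library the change was 0.139.

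METTL4 overexpression raised FOSL1 3.41-fold, from 78.33 and 64.58 in control to 259.24 and 228.20 (log2 1.76, adjusted p = 1.23e-09). The RP11-390F4.3 libraries stood between, at 117.94 and 124.22 (log2 0.76, adjusted p = 3e-06). FOSL1 was the 1 member higher with METTL4 than with RP11-390F4.3, by 2.01-fold. In the mutant clones it stood at 81.53 and 69.37, above the control's 55.85 but by less than 1.5-fold.

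FOSL2 (chr2:28615315-28640184, GRCh37, plus strand) rose with hypoxia in both lines. In FADU it went from 54.81 and 44.81 to 135.69 and 152.97 (log2 1.52, SE 0.312, adjusted p = 0.0163), and in BFTC909 from 276.58 and 281.68 to 369.02 and 375.26 (log2 0.41, adjusted p = 0.002). The FADU call was lost without any 1 of the 4 Scr-si libraries (adjusted p between 0.0754 and 0.125). The lines differed in the rise (-1.11, SE 0.364, adjusted p = 0.0486), a call lost without any 1 of the 8 Scr-si libraries (adjusted p between 0.0761 and 0.146). Under METTL4-si it was lower in both lines. In BFTC909 it stood at 185.29 and 200.73, below all 4 Scr-si libraries (log2 -0.945, adjusted p = 0.00011). In FADU the METTL4-si libraries stood far apart, at 91.72 in the marked replicate 1 and 43.21 in replicate 2, and both were below hypoxic Scr-si (log2 -1.18, adjusted p = 0.0274). The FADU value was -0.65 without replicate 2 and -1.71 without both marked libraries, each with 1 METTL4-si library left. The call was lost without either normoxic or either hypoxic Scr-si library (adjusted p between 0.0531 and 0.148). The lines did not pass the test for a difference in this change (0.235, adjusted p = 0.678). Without the marked libraries the difference was 0.71, with 1 METTL4-si library left in each line. Some FOSL2 reads could belong to the overlapping FOSL2-AS1 or to a noncoding gene on the same strand.

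With RP11-390F4.3, FOSL2 stood at 117.01 and 129.79, against 48.27 and 49.88 in control (log2 1.31, adjusted p = 5.84e-10). With METTL4 it stood at 50.55 and 51.48, with no change called (log2 0.06). In the mutant table the control's 93.89 lay between the clones, at 96.31 and 77.34.

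The JUN family holds the partners that every FOS protein needs. JUN (chr1:59242517-59249720, GRCh37, minus strand) stood in FADU at 80.65 and 74.29 in normoxia and 63.40 and 68.96 in hypoxia, without overlap but with no change called (log2 -0.22, adjusted p = 0.0989). The call was made without METTL4-si replicate 1 (adjusted p = 0.0186) or 2 (adjusted p = 0.0199), which enter the shared spread. In BFTC909 it rose slightly, from 113.45 and 112.76 to 128.89 and 130.85 (log2 0.20, adjusted p = 0.0283), a call lost without any 1 Scr-si library (adjusted p between 0.129 and 0.196). The lines differed (0.42, adjusted p = 0.0123), except without FADU normoxia replicate 1 (adjusted p = 0.0553) or hypoxia replicate 1 (adjusted p = 0.0586). Under METTL4-si it was lower in both lines, at 51.92 and 47.39 in FADU (log2 -0.41, adjusted p = 0.0115) and at 110.86 and 110.66 in BFTC909 (log2 -0.23, adjusted p = 0.0234). Without either hypoxic Scr-si library these calls were also lost, at adjusted p of 0.0546 and 0.105 in FADU and 0.129 and 0.159 in BFTC909, as they were in BFTC909 without either normoxic library (adjusted p = 0.0911 and 0.091). The difference between the lines in this change was not called (0.18, adjusted p = 0.211). Without the marked libraries it was 0.246, with 1 METTL4-si library left in each line.

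JUN rose with both constructs. The control libraries stood at 59.82 and 46.67, the METTL4 libraries at 92.19 and 85.51 (log2 0.74, adjusted p = 1.18e-05) and the RP11-390F4.3 libraries at 215.23 and 211.56 (log2 1.99, adjusted p = 4.02e-10). The mutant clones held JUN at 44.64 and 41.99, against 146.03 in their control.

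JUNB (chr19:12902300-12904129, GRCh37, plus strand), a weaker activator that can restrain JUN, moved in opposite directions in the hypoxic lines. In FADU it went from 107.87 and 100.73 to 64.52 and 71.51 (log2 -0.61, adjusted p = 0.0225) and in BFTC909 from 22.65 and 21.14 to 34.64 and 36.50 (log2 0.68, adjusted p = 0.0252). The groups did not overlap in either line, as for 73.01% of genes in FADU and 82.21% in BFTC909. The difference between the lines passed the test (1.29, SE 0.274, adjusted p = 0.00783). Each line's own call was lost without any 1 of its Scr-si libraries (adjusted p between 0.101 and 0.149 in FADU and between 0.0868 and 0.13 in BFTC909). The METTL4-si libraries of each line straddled hypoxic Scr-si, at 80.39 and 59.80 in FADU and at 28.42 and 46.12 in BFTC909, with no change called. The higher library was the marked one in both lines. Without it JUNB was lower than in hypoxic Scr-si in FADU (log2 -0.18, both marked libraries left out) and in BFTC909 (log2 -0.31). Without the other METTL4-si library JUNB was higher, in FADU (log2 0.24) and in BFTC909 (log2 0.37). Each of these values rests on 1 METTL4-si library.

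JUNB fell with METTL4, from 80.52 and 67.09 to 61.63 and 54.96 (log2 -0.33, adjusted p = 0.00374), and rose with RP11-390F4.3 to 202.94 and 218.71 (log2 1.51, adjusted p = 2.95e-09). The fall was -0.25 without METTL4 replicate 2, where the call was lost (adjusted p = 0.0719), and -0.20 without control replicate 1 (adjusted p = 0.04). JUNB stood at 37.78 and 37.65 in the mutant clones, against 98.47 in the control. The annotation of JUNB overlaps HOOK2 on the other strand.

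JUND (chr19:18390504-18392432, GRCh37, minus strand), the most steadily expressed JUN gene in many cells, had low values here. In FADU it stood at 15.83 and 12.06 in normoxia, 14.42 and 18.20 in hypoxia and 24.41 and 10.46 under METTL4-si, with overlap throughout and no change called. Without both marked libraries the rise with hypoxia was called (log2 0.40, adjusted p = 0.0153). Against hypoxic Scr-si its log2 change was 0.56 without METTL4-si replicate 2 and -0.59 without the marked replicate 1, so that the direction turned on the library. In BFTC909 it stood at 10.16 and 9.90, then 14.31 and 15.91, and then 18.06 and 31.72 under METTL4-si. No change with hypoxia or with METTL4-si was called there (adjusted p = 0.0844 and 0.0678). These calls turned on the fit. The rise with hypoxia was called with DESeq2 on the whole reads (adjusted p = 0.0281), with libraries centred on their medians (adjusted p = 0.0417), with the 2 groups alone (adjusted p = 0.000105), and without METTL4-si replicate 1 (adjusted p = 6.1e-05) or 2 (adjusted p = 8.39e-05). The METTL4-si change was called with DESeq2 (adjusted p = 0.0133) and without METTL4-si replicate 1 (log2 1.02), which left the marked replicate 2. Without that marked library the change was 0.244. Between the lines, the METTL4-si change of JUND was not called as different (0.646, adjusted p = 0.358). The difference was 0.83 without the marked libraries and 1.22 without FADU METTL4-si replicate 1 alone. In BFTC909 JUND was higher in hypoxic METTL4-si than in normoxic Scr-si (log2 1.18, adjusted p = 0.00346). JUND fell with METTL4 overexpression from 12.83 and 11.45 to 7.01 and 5.35 (log2 -0.88, adjusted p = 3.58e-05) and rose with RP11-390F4.3 to 23.07 and 23.77 (log2 0.90, adjusted p = 1.92e-05). The mutant clones held 7.33 and 8.10, against 20.11 in the control.

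ATF3 (chr1:212738676-212794119, GRCh37, plus strand), a stress-induced factor that pairs with JUN and often represses, was low in FADU and rose with hypoxia. Its value was 2.83 and 2.50 in normoxia and 8.18 and 10.58 in hypoxia (log2 1.49, SE 0.181, adjusted p = 0.00278). Under METTL4-si it stood at 3.47 and 4.76, between the normoxic and the hypoxic libraries (log2 -1.02 against hypoxic Scr-si, adjusted p = 0.00657). Without hypoxic Scr-si replicate 2 that change was -0.855 (adjusted p = 0.0634). In BFTC909 it lay between 1.21 and 1.83 in all 6 libraries with no change called, and both line differences passed the test (-1.29, adjusted p = 0.00315, for hypoxia, and 0.93, adjusted p = 0.0154, for METTL4-si). The latter was lost without hypoxic Scr-si replicate 2 of FADU (adjusted p = 0.0675) or of BFTC909 (adjusted p = 0.0639). ATF3 rose 5.83-fold with RP11-390F4.3, from 3.34 and 2.14 to 15.70 and 16.23 (log2 2.20, adjusted p = 3.8e-08), and stood at 3.68 and 3.81 with METTL4, with no change called. That change was called without control replicate 1 (log2 0.59, adjusted p = 0.00448). The mutant clones held 2.06 and 1.66, against 10.92 in the control.

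**Figure D5:**
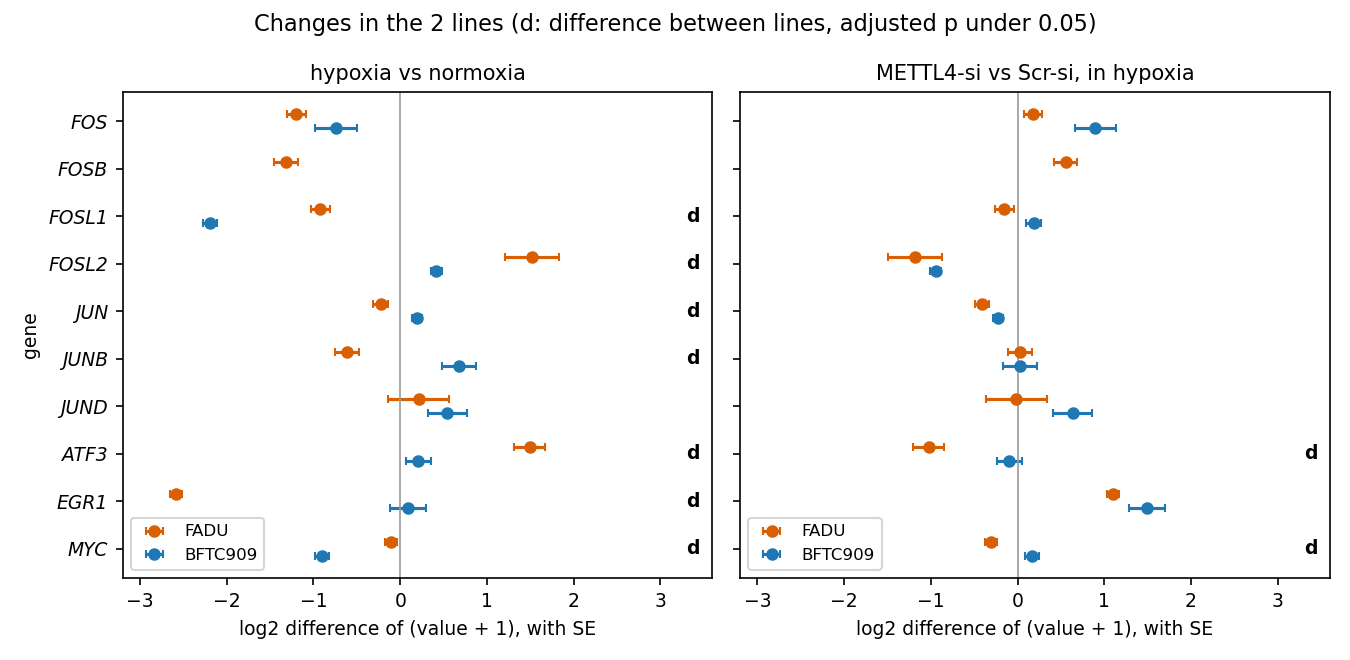
Log2 difference of (value + 1) with its SE for each gene in FADU and BFTC909, for hypoxia against normoxia (left) and METTL4-si against Scr-si in hypoxia (right); d marks a difference between lines with an adjusted p under 0.05. EGR1 lies at -2.59 in FADU and 0.09 in BFTC909 on the left and at 1.10 and 1.49 on the right.

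MYC pairs with MAX to drive growth genes. In FADU it stood at 182.49 and 170.15 in normoxia and 162.16 and 165.06 in hypoxia, without a call (log2 -0.11, adjusted p = 0.3). In BFTC909 it fell 1.88-fold with hypoxia, from 121.33 and 121.90 to 66.73 and 62.63 (log2 -0.90, adjusted p = 0.000214). The groups did not overlap in either line, as for 73.01% of genes in FADU and 82.21% in BFTC909. The lines differed in the response (-0.795, SE 0.107, adjusted p = 0.000807). Under METTL4-si it stood at 136.26 and 127.48 in FADU, below hypoxic Scr-si (log2 -0.31, adjusted p = 0.0148), and at 67.72 and 77.63 in BFTC909, with no change called (log2 0.16, adjusted p = 0.171). The FADU call was lost without hypoxic Scr-si replicate 1 (adjusted p = 0.097) or 2 (adjusted p = 0.117), and the lines differed here too (0.47, adjusted p = 0.0107, and 0.0507 without hypoxic Scr-si replicate 2 of BFTC909). In BFTC909 MYC was higher under METTL4-si without METTL4-si replicate 1 (log2 0.26), which left the marked replicate 2. Without that marked library the change was 0.066.

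MYC rose with both constructs, from 152.41 and 139.54 in control to 185.58 and 174.95 with METTL4 (log2 0.30, adjusted p = 0.000349) and to 225.53 and 227.02 with RP11-390F4.3 (log2 0.63, adjusted p = 2.86e-07). In the mutant clones it stood at 81.53 and 98.57, against 107.51 in the control, within 1.5-fold. The annotation of MYC overlaps the antisense gene CASC11.

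The rest of the pathway is given from 7 lists, to be read against the shares of all genes. In hypoxia 11.7% rose and 12.7% fell in FADU, and 21.2% and 24.5% in BFTC909. Under METTL4-si 15.2% were higher and 19.5% lower in FADU, and 15.7% and 16.6% in BFTC909. With METTL4 20.9% rose and 18.1% fell, and with RP11-390F4.3 28% and 24.8%. In the mutant clones 2.67% were at least 1.5-fold higher and 5.87% lower. Of the other immediate early transcription factors, 2 of 13 rose in FADU hypoxia (KLF6, log2 1.17, and KLF4, 0.57) and 3 fell, among them NR4A1, an orphan nuclear receptor (21.26 to 8.355, log2 -1.25), and IER2 (log2 -1.06). In BFTC909 hypoxia 5 of 13 fell, among them KLF2 (log2 -1.77). Hypoxic Scr-si cells enter both the hypoxia and the METTL4-si comparison of a line. Under METTL4-si in FADU 4 rose, among them EGR3 (log2 1.02) and NR4A1 (0.765), and 4 fell, among them KLF6 (log2 -1.13). In BFTC909 4 rose, among them EGR2 (log2 1.35) and NR4A1 (1.08), and 2 fell. All 15 tested rose with RP11-390F4.3, led by KLF6 (17.71 to 94.36, log2 2.35) and NR4A1 (13.97 to 56.77, log2 1.945), and the list's median was 1.02 against 0.01 for all genes. In the mutant clones 8 of 14 were at least 1.5-fold lower, among them NR4A1 (31.94 in the control and a mean of 2.781 in the clones).

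The other immediate early effectors, which encode secreted and signalling proteins, included 15 genes. With RP11-390F4.3 all 15 rose, led by PTGS2, the inducible cyclooxygenase (6.646 to 59.35, log2 2.98), and SGK1, a kinase of salt and stress signalling (log2 2.92). With METTL4 13 of 15 rose, again with PTGS2 (6.646 to 45.05, log2 2.59), so that effectors rose while EGR1 and FOS fell. In hypoxia 7 of 15 fell in FADU and 11 of 14 in BFTC909, among them HBEGF, an EGFR ligand (log2 -1.46 and -1.70). Under METTL4-si HBEGF (log2 1.46) and TRIB1 (1.335) were higher in FADU, and IER3 (1.17) was higher and CCN1 (-0.93) lower in BFTC909. In the mutant clones 9 of 15 were at least 1.5-fold lower, among them PTGS2 (26.06 in the control and a mean of 2.319 in the clones).

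The feedback inhibitors, the dual-specificity phosphatases, Sprouty and NAB proteins that damp ERK or EGR, moved in both directions. In hypoxia, DUSP4, which dephosphorylates nuclear ERK, fell from 36.13 to 5.428 in FADU (log2 -2.54) and from 26.92 to 1.439 in BFTC909 (log2 -3.52). Under METTL4-si it was higher than in hypoxic Scr-si in both (24.21, log2 1.89, and 14.62, log2 2.61), as was SPRY4 (log2 1.31 and 1.53), whereas SPRY1 was lower (log2 -1.76 and -2.16). Each of these changes passed the test, and 6 of 15 inhibitors were higher and 5 lower in FADU and 6 of 14 were higher and 4 lower in BFTC909. With RP11-390F4.3 13 of 14 rose, led by DUSP6 (27.55 to 304.3, log2 3.44) and DUSP1 (9.783 to 109.8, log2 3.36). With METTL4 10 of 14 rose, also led by DUSP6 (log2 1.86) and DUSP1 (log2 1.51).

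Among the MAP kinases, MAP2K1, the kinase that activates ERK, rose with hypoxia in FADU (60.04 to 96.16, log2 0.67) and was lower under METTL4-si in both lines (log2 -1.03 and -0.87). Of 12 kinases, 2 rose and 1 fell in FADU hypoxia, and 2 rose and 3 fell in BFTC909 hypoxia. Under METTL4-si 0 were higher and 5 lower in FADU, and 3 were higher and 3 lower in BFTC909. With RP11-390F4.3, 9 rose and 1 fell, with a list median of 0.20. Of the other AP-1 dimer partners and small MAF proteins, MAFF was higher with METTL4 (log2 1.13) and RP11-390F4.3 (log2 1.74), and MAF rose in hypoxia (log2 2.37 in FADU and 1.38 in BFTC909) and was lower under METTL4-si (log2 -2.34 and -0.88).

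Around MYC, the antagonist MXI1 rose in hypoxia in FADU (9.026 to 31.9, log2 1.70) and in BFTC909 (11.71 to 30.97, log2 1.34) and was lower under METTL4-si in both (log2 -1.53 and -0.84). Of 16 growth genes that MYC is known to drive, 15 fell in FADU hypoxia, where MYC itself was not called, and 14 fell in BFTC909 hypoxia. The list's medians were -0.45 and -0.83, against -0.03 and -0.02 for all genes, and the ornithine decarboxylase gene ODC1 led in both lines (log2 -1.34 and -1.71). With METTL4, 15 of 16 rose with a median of 0.27, led by ODC1 (106.2 to 230.5, log2 1.11). With RP11-390F4.3, where MYC rose more, 4 rose and 8 fell, with a median of -0.10.

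The members did not form 1 group across libraries. Over the 18 libraries of the 3 tables with replicates, with log2 values centred on the mean of each table, FOS followed JUNB (Pearson r = 0.881) and JUN (0.795), FOSL1 followed MYC (0.794) and FOSL2 followed ATF3 (0.81). FOS and FOSL1 had an r of -0.002 and FOSL1 and JUND one of -0.55. Among 13348 genes tested in all 3 tables, those most like FOS were NR4A1 (0.938), TNFSF9 (0.928) and IER2 (0.903). Those most like EGR1 were ARHGEF3 (0.889), FGD1 (0.884) and NR4A1 (0.883). MYC was most like MAFF (0.946), VPS37B (0.943) and PFDN2 (0.941), and FOSL1 most like NGDN (0.96), RUVBL1 (0.951) and CHCHD4 (0.942). The 18 points share groups, tables and scaling, so these values are descriptions and the FOS values rest much on the 2 RP11-390F4.3 libraries.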

How the data were processed

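RNA was sequenced in 21 libraries. Per the labels and the methods, the authors used Trim Galore for trimming, HISAT2 for alignment of paired reads (genome hg19), HTSeq for counts per gene and edgeR for normalization. The deposited values are a signal, TMM-normalized CPM. The authors' tables of their own comparisons (fold changes and p-values) were not used. In all 4 tables the values came out as whole reads (100% within 0.05 of a whole number), with 17.8 to 25.4 M reads on genes per library. In the mutant table between 40.91% and 42.95% of the scaling total came from unassigned reads, so levels across tables are in CPM of gene reads.

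Genes that reached 1 in 2 or more libraries were tested with limma 3.58.1 (R 4.3.3, trended) on log2(value + 1), which understates changes of low genes. The 6 libraries of a table shared the spread, and p-values were adjusted by Benjamini-Hochberg over all genes tested (called at 0.05). The difference between lines was tested in 1 fit of both tables. The mutant table had 1 control library and no test. Counting intervals are 95% and cover counting error only. Alternatives included edgeR 4.0.16 and DESeq2 1.42.0 on the recovered reads of the 3 tables with replicates, other pseudocounts and filters, and leaving out each library. A fit without a library left its group with 1, so its adjusted p does not measure the spread within that group. The fits were tested on simulated data.

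The members and lists were chosen with earlier results of these data known. From each list, at most 2 called genes with the largest and 2 with the smallest log2 change in each comparison could be named.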

Additional observations from a re-analysis of the deposited data

Results flagged for a closer look

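The response of 7 of 9 members to hypoxia differed between the lines by the test of the difference itself, where 25.9% of 13595 genes differed. Differences are given as BFTC909 minus FADU on the log2 scale. EGR1 (2.674), JUNB (1.287) and JUN (0.422) had the more positive change in BFTC909, whereas FOSL1 (-1.271), ATF3 (-1.287), FOSL2 (-1.107) and MYC (-0.795) had the more negative one. The effect of METTL4-si differed for ATF3 (0.928) and MYC (0.473), where 25.3% of genes differed. In hypoxia the FOSL2 call was lost without any 1 of the 8 Scr-si libraries, and the JUN call without either of 2 libraries. For METTL4-si the ATF3 call was lost without either of 2 libraries and the MYC call without 1. Both lines include marked libraries. Without them the hypoxia differences were 2.628 for EGR1, 1.238 for JUNB, 0.363 for JUN and -1.385 for FOSL1. They were -1.351 for ATF3, -1.250 for FOSL2 and -0.845 for MYC. For METTL4-si they were 0.715 for ATF3 and 0.423 for MYC. Each kept its sign, with 1 library left in each marked group, and the part of the markers was not tested.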

How the results depend on the processing

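Of 1994 alternative values of the 115 member changes, 1841 kept their side of the threshold (25 of these changed sign between values called in neither fit), 107 lost a call, 42 gained one and 4 reversed. None of these 4 was called in the main fit, where JUNB was 0.029 in FADU and 0.026 in BFTC909 and JUND -0.012 in FADU. The reversed values were JUNB under METTL4-si at -0.181 in FADU and -0.313 in BFTC909 without the marked libraries (the BFTC909 value also without METTL4-si replicate 2), and JUND under METTL4-si in FADU at 0.562 without METTL4-si replicate 2, where it was -0.587 without replicate 1. JUNB in BFTC909 was 0.366 without METTL4-si replicate 1. The cause was not tested.

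Requiring a change of at least 2-fold as well left 3 called members for METTL4-si in FADU, 3 for METTL4-si against normoxia in FADU and 3 in BFTC909, 1 for hypoxia and 1 for METTL4-si in BFTC909, and 2 for METTL4 overexpression. Fitting the compared groups alone left 2 for METTL4-si in BFTC909. The difference between lines in the METTL4-si effect was called for 1 member with a mean value of at least 5, and for 5 without the marked libraries. Leaving out 1 library at a time gave 5 to 8 called members for hypoxia in FADU, 1 to 8 for METTL4-si in FADU, 4 to 9 for METTL4-si against normoxia in FADU, 3 to 7 for hypoxia in BFTC909, 2 to 8 for METTL4-si in BFTC909, 5 to 7 for METTL4-si against normoxia in BFTC909 and 7 to 8 for METTL4 overexpression. It gave 10 in each case for RP11-390F4.3 against control and against METTL4, 5 to 7 for the line difference in hypoxia and 0 to 4 for that in METTL4-si.

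The replicate numbers are not stated to pair samples: the correlation of deviations was 0.648 for FADU normoxia with METTL4-si and -0.0652 to 0.154 otherwise. Replicate 1 of both these FADU groups is a marked library, and the part of the markers in the 0.648 was not tested. With a replicate block the called members were 7 for FADU hypoxia, 6 for FADU METTL4-si, 7 for BFTC909 hypoxia, 5 for BFTC909 METTL4-si and 8 for METTL4 overexpression, with JUND gained in both BFTC909 comparisons (adjusted p = 0.045 and 0.0352) and FOSB in the last (adjusted p = 0.0493). Low members depended on the pseudocount: the hypoxic change of FOS in BFTC909 was -1.438 with 0.1 and -0.241 with 5 (adjusted p = 0.08). With 2 libraries a group, and 1 control for the mutants, small changes could not be resolved.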
